A study of Mus musculus with 28 samples.

Results

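Axon guidance ligands and receptors were followed through hippocampal CA1 of mice after a seizure-inducing drug. The set holds the 58 genes whose symbols belong to the semaphorins of classes 3 to 7 (16 genes), their plexin receptors (8), the ephrins (8), the Eph receptors (12), the Slits (3), the Robos (4), the netrins (3) and the Unc5 receptors (4), out of 14711 genes listed for the series. They comprise 30 ligands and 28 receptors, and each had counts in all 28 libraries' tables. Membership was decided by symbol alone, but the set was chosen with earlier results of these data known. RefSeq genes of the same families that are not in the tables were not analysed here.

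All mice were C57BL/6, 3 to 4 weeks old, and carried 1 copy of an HA-tagged Rpl22 allele behind a floxed stop (LSL-Rpl22-HA/+), which gives ribosomes an HA tag in cells that express Cre, so that an anti-HA immunoprecipitation (IP) recovers the RNA those ribosomes hold. The Cre driver was CaMK2a-Cre/+, active mainly in excitatory neurons, or PV-Cre/+, active in parvalbumin interneurons. There were 8 groups: the IP and the input (lysate taken before the IP) from CA1 of either line, 6 h after kainic acid, an agonist of glutamate receptors, or after PBS. The time after PBS is uncertain, since names of the deposited columns place it earlier. Each of the CaMK2a groups had 3 libraries, from pools of 4 mice, and each of the PV groups had 4, from pools of 9 to 10 mice. The RNA amount was 20 ng per library in the CaMK2a groups and 2.5 ng in the PV groups. Differences between the lines cannot be told apart from those of RNA amount and pool size. An IP and an input with the same number came from 1 lysate pool, so a replicate is a pool and not a mouse.

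Guidance ligands steer growing axons. Semaphorins signal through plexins, with neuropilins as co-receptors for most of class 3. Ephrins and Eph receptors, which are tyrosine kinases, both sit in the membrane and signal where cells touch. Slits repel through Robos, and netrins attract through Dcc or repel through Unc5 receptors. In the mature hippocampus several of these proteins are known to shape spines, synapses and inhibitory contacts, and vessels use the same families.

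Library totals ran from 6.06 M to 15.8 M counted reads. PV libraries varied more between replicates than CaMK2a libraries, with a common biological coefficient of variation of 44.3% in the PV IP and 27.2% in the PV input, against 14.8% in the CaMK2a IP and 12.6% in the CaMK2a input. PV replicate 4 stood apart from the other three in several members and its deviations were shared between groups (r = 0.616 between the kainic acid and PBS inputs), so values without it are given beside several PV results. Of the 7 PV interneuron markers in the tables (8 were listed), summed CPM was 2752 to 3570 in the PV IP against 550 to 599 in the PV input after PBS. The CA1 pyramidal markers (9 of 10 listed) summed to 11980 to 13390 in the CaMK2a IP against 9390 to 10490 in the CaMK2a input after PBS, and still to 4556 to 5728 in the PV IP. After PBS, oligodendrocyte markers (8 of 10 listed) summed to 3986 to 5961 CPM in the PV IP and 5729 to 7498 CPM in the PV input, which overlap. Astrocyte markers (8 of 10) summed to 4656 to 6443 CPM and 9179 to 11260 CPM there. Pyramidal and glial transcripts were thus measured in the PV IP as well, and their part in the PV IP values was not tested.

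The levels of members can be compared with each other through the authors' deposited RPKM, which divide by gene length. After PBS, Epha4 stood first in the CaMK2a IP at 31.1 ± 0.759 RPKM (SD, n = 3), followed by Epha7 at 17.9 ± 0.326, Epha6 at 15.1 ± 0.790, Unc5a at 13.5 ± 0.622 and Plxna4 at 11.8 ± 0.511 RPKM. Each of these neighbours was apart by more than the SDs of both. In the PV IP after PBS, Plxna4 (11.8 ± 0.827 RPKM, SD, n = 4) and Epha4 (10.98 ± 2.44 RPKM) led, and their spreads overlapped. Of the 58 members, 31 averaged at least 1 RPKM in the CaMK2a IP and 31 in the PV IP after PBS, while 11 and 7 averaged under 0.1 RPKM there. Unc5b, a netrin receptor that is also a known endothelial gene, averaged 0.211 ± 0.0178 RPKM in the CaMK2a IP after PBS, at position 46 of 58. After kainic acid it stood at position 23 there, at 1.43 ± 0.358 RPKM.

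The 250 bases before the RefSeq start (GRCm38.p6) of 4 members that the results turn on are printed 5′ to 3′ in the direction of transcription, for the gene with the largest rise, Unc5b, and for the called members Sema4c, Efnb2 and Sema5a, which each hold 1 of the searched motifs. Capitals mark the motif.
Unc5b, chr10:60831582-60831831, minus strand: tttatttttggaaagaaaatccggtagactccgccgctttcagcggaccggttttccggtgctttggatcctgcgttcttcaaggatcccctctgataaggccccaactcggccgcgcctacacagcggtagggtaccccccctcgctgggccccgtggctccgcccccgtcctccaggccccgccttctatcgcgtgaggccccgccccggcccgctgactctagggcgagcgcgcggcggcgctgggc
Sema4c, chr1:36558382-36558631, minus strand: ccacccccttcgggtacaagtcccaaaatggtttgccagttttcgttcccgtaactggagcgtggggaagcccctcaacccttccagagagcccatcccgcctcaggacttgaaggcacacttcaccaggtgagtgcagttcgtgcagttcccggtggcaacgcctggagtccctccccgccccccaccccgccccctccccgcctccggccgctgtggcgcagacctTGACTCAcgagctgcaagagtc
Efnb2, chr8:8661243-8661492, minus strand: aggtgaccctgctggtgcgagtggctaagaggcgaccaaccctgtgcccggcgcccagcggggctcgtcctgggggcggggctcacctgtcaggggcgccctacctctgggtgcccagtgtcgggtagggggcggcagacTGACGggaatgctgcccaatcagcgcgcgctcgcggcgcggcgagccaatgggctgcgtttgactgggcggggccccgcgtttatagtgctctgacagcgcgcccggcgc
Sema5a, chr15:32244563-32244812, plus strand: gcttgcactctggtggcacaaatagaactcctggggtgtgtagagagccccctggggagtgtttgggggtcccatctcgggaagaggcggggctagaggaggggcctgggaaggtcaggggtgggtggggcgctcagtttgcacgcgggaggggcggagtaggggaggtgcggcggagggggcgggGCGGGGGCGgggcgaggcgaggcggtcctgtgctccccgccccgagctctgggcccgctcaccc

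Motifs of activity-regulated transcription factors were searched on both strands of these windows. The AP-1 motif TGANTCA was in 1 of the 50 member promoters in the RefSeq table, that of Sema4c, 22 bases before the start, and in 5.19% of the 11317 promoters of genes in the tables. The CRE motif TGACGTCA was in 1 of 50, Epha2, and in 2.4% of all. Its core TGACG, which the full motif contains, was in 7 of 50 members and in 23.9% of all, and in Efnb2 it lay 110 bases before the start. The EGR motif GCGNGGGCG was in 9 of 50 members and in 8.1% of all, and in Sema5a it lay 64 bases before the start. The Unc5b window held none of them. These are matches of letters and do not show binding.

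Which guidance genes changed in the ribosome-bound RNA of either cell class, and in the whole tissue, was asked by setting kainic acid against PBS in the 4 fractions. In the CaMK2a IP, Unc5b rose 7.25-fold, the largest change of any member, and Efna1, Sema4c and Sema4a rose 2- to 3-fold on the same scale. Sema5a and Plxnd1 fell to under 0.5 of their PBS level. Of 50 members tested there, 7 rose and 10 fell (edgeR quasi-likelihood test, Benjamini-Hochberg adjusted p under 0.05), a share of 34% against 35.1% of all 10663 genes tested (19.8% higher and 15.3% lower). In the CaMK2a input, 7 of 55 rose and 10 fell, or 30.9% against 35% of all 11287 genes (19.3% higher and 15.7% lower). The members as a set were therefore called about as often as any gene, and what follows describes which of them moved. The split between rises and falls depends on the scaling: of all genes called in the CaMK2a IP, 56.4% were higher with TMM factors and 42.4% with upper-quartile factors. In the CaMK2a line 9 members were called in the same direction in IP and input, 8 in the IP and 8 others in the input, from the same lysate pools. Over all 4 fractions 25 members were called at least once, never in opposite directions, and 33 in none. The same overlaps and directions were not counted over all genes, so these numbers are not a result about the members as a set. Too low to be tested were 8 members in the CaMK2a IP, 3 in the CaMK2a input, 6 in the PV IP and 6 in the PV input, among them Efna4, Epha1 and Epha2 in every fraction. A loss or gain of signal in bulk RNA can come from fewer or more cells or from the RNA per cell, and these cannot be told apart.

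**Figure D1:**
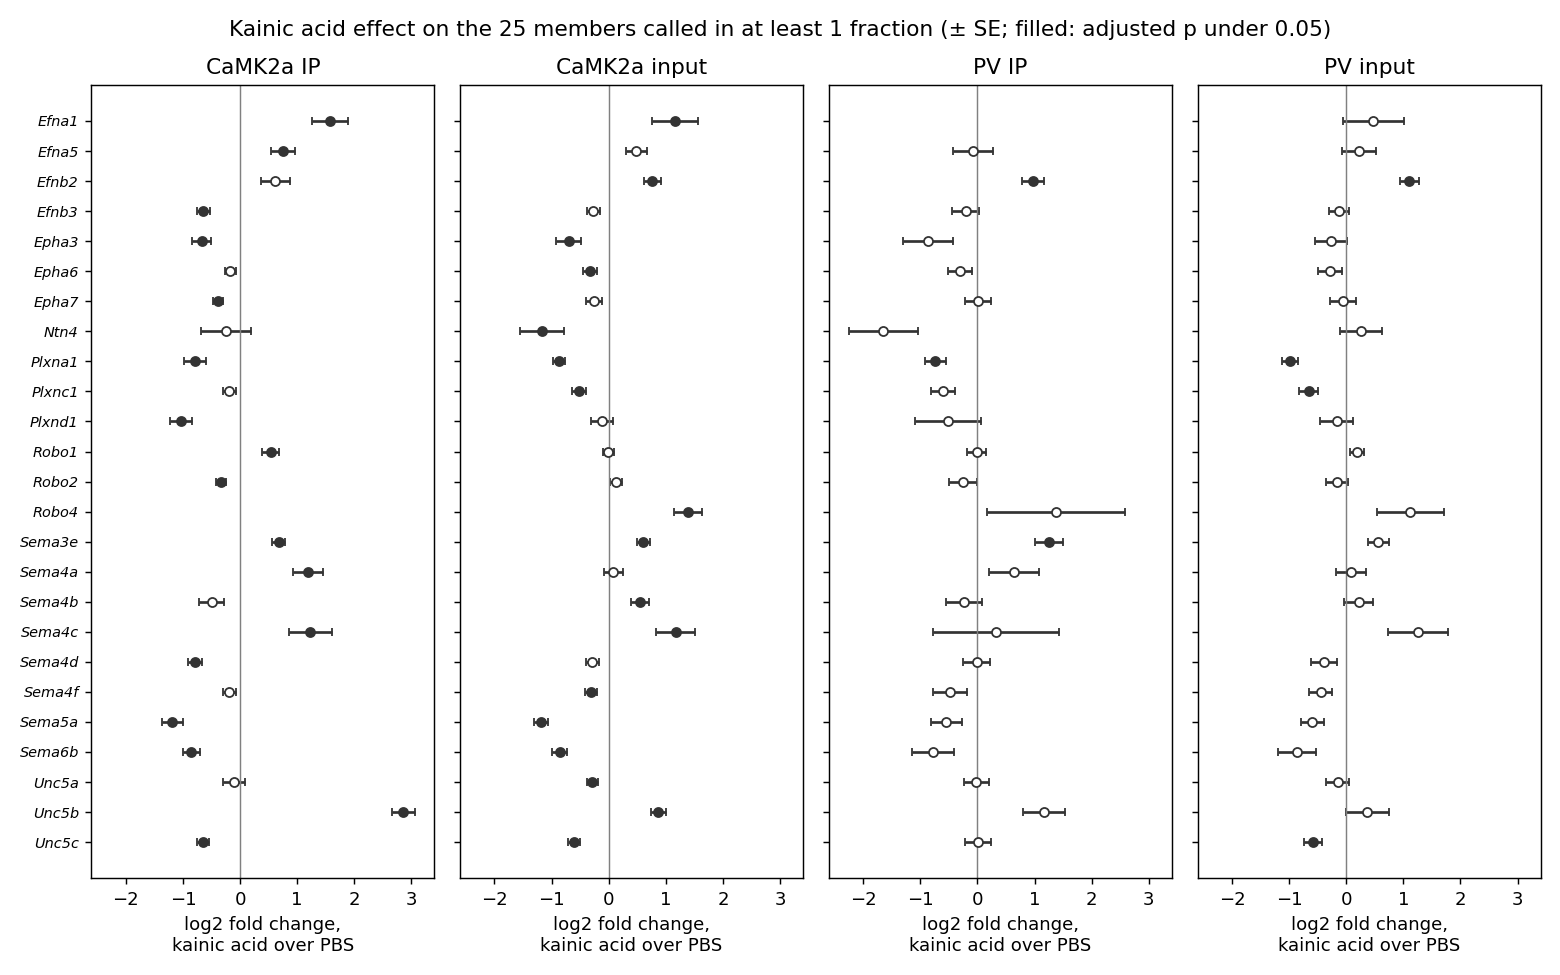
Kainic acid effect on the 25 members called in at least 1 of the 4 fractions. Points give the log2 fold change of kainic acid over PBS and bars its SE, and filled points have an adjusted p under 0.05. Unc5b stands at 2.86 in the CaMK2a IP, and Plxna1 is filled and below 0 in all 4 panels, while a gene with no point was not tested there.

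Among the ligands, ephrin Efna1, which binds EphA receptors from a lipid anchor, had 5.68, 4.29 and 4.74 CPM in the kainic acid CaMK2a IP libraries and 1.76, 1.32 and 1.77 CPM in the PBS ones. The groups did not overlap (1.57 ± 0.32, adjusted p = 0.00436, log2 fold change ± SE here and below). In the input it had 3.19, 3.88 and 3.47 CPM after kainic acid and 0.921, 1.63 and 2.37 CPM after PBS, also without overlap (1.17 ± 0.40, adjusted p = 0.0312). These levels rest on few reads, 27, 36 and 23 in the kainic acid inputs and 11, 18 and 18 in the PBS inputs. The input call was lost without any 1 of 5 of the 6 libraries (adjusted p 0.0525 to 0.161). Efna5, of the same class, rose in the IP (0.74 ± 0.21, adjusted p = 0.0202). In the input it did not pass (0.48 ± 0.19, adjusted p = 0.0539), but it passed by DESeq2 and with the replicate number as a block. The IP call was lost without kainic acid replicate 3 (adjusted p = 0.0933), PBS replicate 1 (0.0927) or PBS replicate 2 (0.0765).

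Efnb2, a transmembrane ephrin that also signals into the cell bearing it, passed in 3 of the 4 fractions. In the CaMK2a IP it had 213, 88.8 and 130.4 CPM after kainic acid and 99.5, 90.7 and 91.4 CPM after PBS. Kainic acid replicate 2 lay below every PBS library, the other kainic acid libraries lay above them, and the difference did not pass (0.62 ± 0.25, adjusted p = 0.0813). Without that library it did (0.86, adjusted p = 0.0017). In the CaMK2a input it had 109, 69.5 and 72.7 CPM after kainic acid and 55.1, 50.1 and 44.8 CPM after PBS, with no overlap (0.76 ± 0.15, adjusted p = 0.000674). Efnb3, a related ephrin, fell in the CaMK2a IP (-0.65 ± 0.11, adjusted p = 0.00179).

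The secreted semaphorin Sema3e, a ligand of Plxnd1, had 266, 206 and 217 CPM in the kainic acid CaMK2a IP and 142, 135 and 155 CPM in the PBS IP (0.68 ± 0.12, adjusted p = 0.00165). The input had 118, 95.8 and 100.5 CPM after kainic acid and 68.2, 68.5 and 73.0 CPM after PBS (0.61 ± 0.11, adjusted p = 0.000324). Every kainic acid library lay above every PBS library in both fractions. Its receptor Plxnd1 moved the other way in the IP, with 12.9, 13.8 and 10.5 CPM after kainic acid and 31.5, 23.4 and 20.9 CPM after PBS (-1.04 ± 0.19, adjusted p = 0.00248). In the input Plxnd1 overlapped between the treatments, at 22.1, 15.6 and 15.4 CPM after kainic acid and 15.4, 20.4 and 23.3 CPM after PBS (-0.12 ± 0.19, adjusted p = 0.657). The difference between the effects in IP and input did not pass for Plxnd1 (-0.96 ± 0.29, adjusted p = 0.307).

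The membrane-bound class 4 semaphorins, ligands of plexin B receptors among others, went in both directions. Sema4c had 4.33, 2.71 and 4.08 CPM in the kainic acid IP and 2.02, 1.19 and 1.38 CPM in the PBS IP (1.23 ± 0.38, adjusted p = 0.0295). In the input it had 8.75, 3.45 and 7.86 CPM after kainic acid and 2.93, 2.44 and 3.68 CPM after PBS, with kainic acid replicate 2 inside the PBS range (1.17 ± 0.35, adjusted p = 0.0139). It is a low gene, with 31, 9 and 14 reads in the PBS IP libraries, and its exons overlap D430040D24Rik on the opposite strand. Whether the counts separate the strands is not given in the sources used here. Its IP call was lost without kainic acid replicate 1 (adjusted p = 0.0671) or 3 (0.099), or PBS replicate 2 (0.0922) or 3 (0.1), and its input call without kainic acid replicate 1 (0.0927) or PBS replicate 2 (0.0613).

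Sema4a rose in the CaMK2a IP (1.19 ± 0.26, adjusted p = 0.00646), with 0.08 ± 0.17 in the input. Sema4b rose in the input (0.54 ± 0.16, adjusted p = 0.0146), with -0.49 ± 0.22 in the IP, and the input call was lost without kainic acid replicate 3 (adjusted p = 0.0671), PBS replicate 1 (0.071) or PBS replicate 2 (0.0716). Sema4d, a ligand of Plxnb1, fell in the IP (-0.79 ± 0.12, adjusted p = 0.000712). Sema4f fell in the input (-0.31 ± 0.11, adjusted p = 0.0374), a call lost without any 1 of 5 of the 6 libraries (adjusted p 0.068 to 0.145).

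Sema5a, a transmembrane semaphorin with thrombospondin repeats, had the largest fall of any ligand in both fractions. It had 49.9, 63.1 and 56.3 CPM in the kainic acid IP and 91.8, 149.5 and 145 CPM in the PBS IP (-1.18 ± 0.18, adjusted p = 0.000815). Its input levels were 90.2, 97.0 and 66.0 CPM after kainic acid and 210.0, 203 and 173 CPM after PBS (-1.19 ± 0.12, adjusted p = 7.17e-07). No library of one treatment reached the other. Sema6b, a transmembrane ligand of A-type plexins, had 18.9, 26.5 and 23.4 CPM in the kainic acid IP and 44.3, 40.1 and 39.9 CPM in the PBS IP (-0.85 ± 0.14, adjusted p = 0.00143). Its input levels were 28.6, 34.8 and 35.7 CPM after kainic acid and 65.2, 58.1 and 58.9 CPM after PBS (-0.86 ± 0.13, adjusted p = 5.91e-05), again with no overlap.

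Ntn4, a netrin of basement membranes, was a low gene with 1.42, 2.80 and 1.21 CPM in the kainic acid input and 3.69, 3.53 and 5.66 CPM in the PBS input (-1.17 ± 0.39, adjusted p = 0.0275). The call was lost without kainic acid replicate 1 (adjusted p = 0.0942) or 3 (0.0733) or PBS replicate 3 (0.129). In the CaMK2a IP it had 2.16, 1.13 and 1.98 CPM after kainic acid and 2.81, 1.19 and 2.06 CPM after PBS, which overlapped (-0.25 ± 0.45, adjusted p = 0.703). None of the 3 Slits was called in either CaMK2a fraction without a block. With the replicate number as a block Slit1 passed in the input. The 2 other netrins were not called in either fraction, with Ntn1 at 1.36 ± 0.51, adjusted p = 0.0614 in the IP.

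Plxna1, which with neuropilins receives class 3 semaphorins and on its own receives class 6, was the only member called in all 4 fractions. It had 129, 242 and 168 CPM in the kainic acid CaMK2a IP and 322, 289.9 and 319 CPM in the PBS IP (-0.79 ± 0.18, adjusted p = 0.00862). In the CaMK2a input it had 131, 160.2 and 137 CPM after kainic acid and 267, 261 and 265 CPM after PBS (-0.87 ± 0.10, adjusted p = 2.32e-06). The groups did not overlap in either fraction. Plxnc1, the receptor of Sema7a, had 46.9, 61.0 and 46.2 CPM in the kainic acid input and 72.4, 78.3 and 74.8 CPM in the PBS input (-0.52 ± 0.12, adjusted p = 0.00336). In the IP its levels overlapped, with 83.2, 74.1 and 75.6 CPM after kainic acid and 76.9, 96.2 and 92.6 CPM after PBS (-0.19 ± 0.11, adjusted p = 0.232). The exons of Plxna1 overlap Gm26811 on the opposite strand.

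None of the Eph receptors tested in the CaMK2a fractions rose by edgeR. Epha1 and Epha2 were too low to test in either fraction, with Epha2 at 2.25, 1.08 and 3.02 CPM in the kainic acid input and 0.586, 0.272 and 0.526 CPM in the PBS input, from 19, 10 and 20 and 7, 3 and 4 reads. Every kainic acid library lay above every PBS library there, and Epha1 levels were likewise 2.01, 1.62 and 0.604 CPM after kainic acid and 0.0838, 0.362 and 0.395 CPM after PBS. Epha3 had 16.9, 13.2 and 19.3 CPM in the kainic acid IP and 25.6, 24.3 and 28.6 CPM in the PBS IP (-0.67 ± 0.17, adjusted p = 0.0111), and 7.45, 6.03 and 4.83 CPM in the kainic acid input and 9.21, 11.2 and 10.0 CPM in the PBS input (-0.70 ± 0.22, adjusted p = 0.0216). The groups did not overlap, but the IP call was lost without PBS replicate 3 (adjusted p = 0.0567) and the input call without kainic acid replicate 3 (0.0633), PBS replicate 2 (0.105) or PBS replicate 3 (0.0565). Epha7, one of the most abundant members, fell in the IP (-0.39 ± 0.09, adjusted p = 0.00873). Epha6 fell in the input (-0.33 ± 0.12, adjusted p = 0.0458), a call lost without any 1 of 5 of the 6 libraries (adjusted p 0.112 to 0.133). Epha4, the most abundant of all, was not called in either fraction without a block (-0.07 ± 0.11 in the IP and -0.27 ± 0.11 in the input). With the replicate number as a block Epha4, Epha7 and Ephb1 passed in the input.

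The Slit receptors Robo1 and Robo2 differed in direction in the CaMK2a IP. Robo1 rose (0.53 ± 0.15, adjusted p = 0.023) and Robo2 fell (-0.34 ± 0.09, adjusted p = 0.0132). Both calls were fragile: Robo1 lost its call without PBS replicate 1 (adjusted p = 0.0974), 2 (0.0698) or 3 (0.0587), or with upper-quartile factors (0.0512), and Robo2 without PBS replicate 1 (0.0565) or 3 (0.0523). Robo4, a Robo of vessels rather than axons, had 11.5, 8.51 and 12.4 CPM in the kainic acid CaMK2a input and 3.94, 4.71 and 3.81 CPM in the PBS input (1.39 ± 0.24, adjusted p = 0.000234), with every kainic acid library above every PBS library. Its level in the CaMK2a IP was near 0, with 7, 2 and 5 reads after kainic acid and 3, 4 and 1 reads after PBS, and was not tested there. Endothelial markers moved with it: the 9 of 10 listed markers in the tables summed to 101 to 115 CPM in the kainic acid inputs and 67.1 to 75.0 CPM in the PBS inputs, none was at 0 in a whole group, and 5 rose and 2 fell. Their part in the input values of Robo4 and Unc5b was not tested.

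Unc5b had 27.1, 42.1 and 29.8 CPM in the kainic acid CaMK2a IP libraries and 4.57, 4.88 and 4.22 CPM in the PBS ones. The PBS libraries agreed closely, and the lowest kainic acid library was above the highest of them by several times. The log2 fold change was 2.86 ± 0.21, adjusted p = 9.61e-06. In the CaMK2a input Unc5b had 73.8, 68.1 and 91.0 CPM after kainic acid and 40.8, 44.5 and 44.2 CPM after PBS, also without overlap (0.87 ± 0.13, adjusted p = 5.51e-05, or 1.83-fold). In CPM the gene was thus higher in the input than in the IP under both treatments, and the distance between the fractions was smaller after kainic acid.

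The kainic acid effect on Unc5b was larger in the IP than in the input of the same lysates by 1.95 ± 0.24, adjusted p = 0.00174 on the log2 scale. It was the only one of 56 members for which this difference passed, where 0.103% of all 11640 genes did. With the lysate pool as a block it also passed, and over all libraries left out in turn the difference stayed between 1.75 and 2.12. Endothelial markers in the CaMK2a IP summed to 7.22 to 25.2 CPM after kainic acid and 8.88 to 20.2 CPM after PBS, ranges that overlap. Astrocyte markers (8 of 10 listed) summed to 1317 to 2575 CPM after kainic acid and 1374 to 2074 CPM after PBS there, and these overlap as well. The groups did not overlap in 3 other marker lists in the CaMK2a IP. Dentate granule cell markers (5 of 6 listed) summed to 388 to 499 CPM after kainic acid and 244 to 364 CPM after PBS, markers of other interneurons (7 of 8) to 3021 to 3569 CPM and 2231 to 2616 CPM, and CA1 pyramidal markers to 9658 to 11480 CPM and 11980 to 13390 CPM. In the PBS input markers of other interneurons summed to 1879 to 2343 CPM, which overlaps the PBS IP. GABAergic neuron markers summed to 125 to 213 CPM in the PBS IP and 1108 to 1124 CPM in the PBS input. The other interneuron sum can therefore not be read as an amount of interneuron RNA in this IP. The part of these lists in the Unc5b values was not tested.

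**Figure D2:**
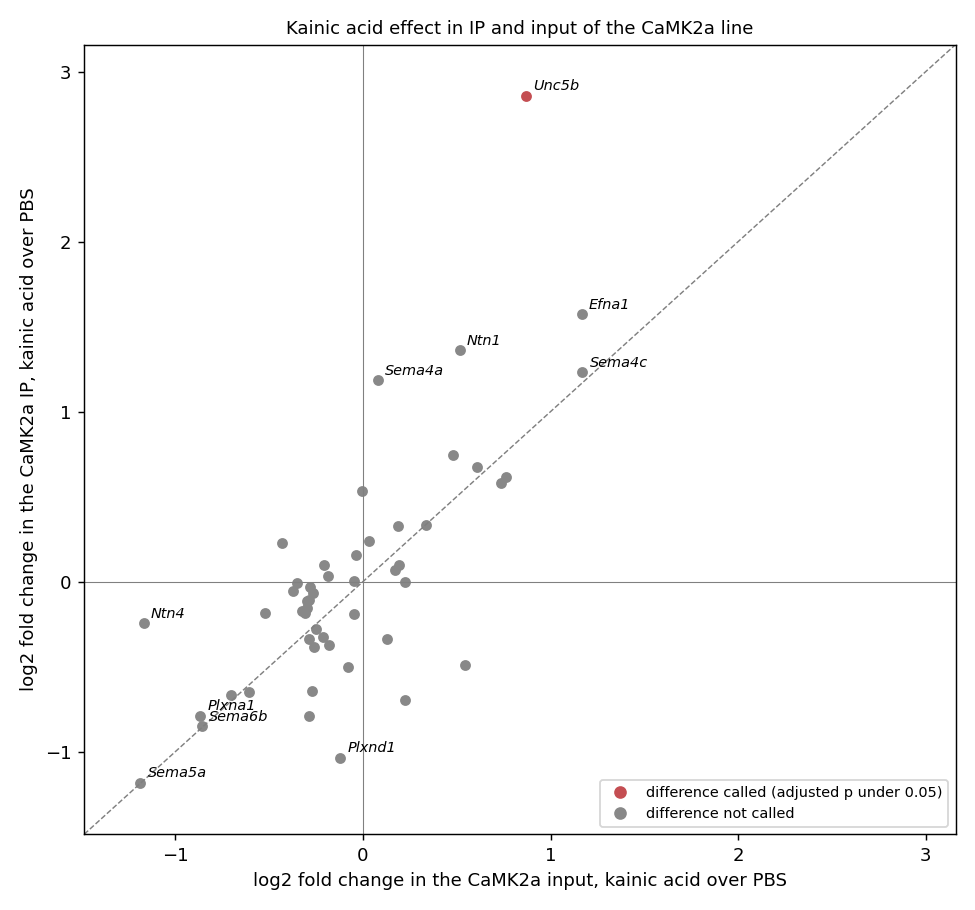
Log2 fold change of kainic acid over PBS in the CaMK2a IP (vertical axis) and in the CaMK2a input (horizontal axis), 1 point per member tested in both. Unc5b, the red point, lies at 2.86 in the IP and 0.87 in the input, and is the member whose 2 effects differ by the test, while the dashed line marks equal effects.

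The other Unc5 receptors did not share this pattern. Unc5c had 64.8, 51.6 and 61.2 CPM in the kainic acid CaMK2a IP and 92.9, 90.8 and 95.2 CPM in the PBS IP (-0.65 ± 0.11, adjusted p = 0.00146). In the input it had 81.5, 73.2 and 62.1 CPM after kainic acid and 118, 108 and 109 CPM after PBS (-0.61 ± 0.11, adjusted p = 0.000365). The treatments did not overlap in either fraction. Unc5a fell in the input (-0.29 ± 0.10, adjusted p = 0.0347), and this call was lost without kainic acid replicate 1 (adjusted p = 0.123) or PBS replicate 1 (0.0661), 2 (0.0701) or 3 (0.209). Unc5d was not called in either fraction. Both Unc5a and Unc5c have exons that overlap genes on the opposite strand (Hk3 and Gm15688).

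In the PV line fewer members were called. In the PV IP, 2 of 52 members rose and 1 fell, or 5.77% against 4.85% of all 11107 genes (4.05% higher and 0.801% lower). In the PV input, 1 of 52 rose and 3 fell, or 7.69% against 11.6% of all 11145 genes (8.21% higher and 3.36% lower). Deviations of same-numbered libraries from their group means had r between 0.143 and 0.616 for the 4 pairs of the PV input, highest in replicate 4. Deviations within a group cancel, so a shift shared by replicate 4 also raises r in the other pairs. Whether the numbers pair the 2 treatments is not settled. With the replicate number as a block 4 rose and 11 fell in the PV input, where 30.7% of all genes were called (16.5% higher and 14.3% lower). The 4 calls made without the block were among these 15, and Sema5a, Sema6b, Sema4d, Sema4f, Epha6, Ephb1, Ephb2 and Plxna3 were added as lower and Sema3e, Sema6a and Plxna4 as higher. With replicates 1 to 3 alone 5 rose and 9 fell, where 24.8% of all were called (14.5% higher and 10.3% lower). By DESeq2 2 rose, Sema3e being added, and 3 fell, where 16.2% of all were called.

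Efnb2 and Sema3e were the members that rose in the PV IP. Efnb2 had 105, 113, 89.6 and 113 CPM in the kainic acid PV IP libraries and 59.4, 58.2, 50.1 and 48.5 CPM in the PBS ones (0.97 ± 0.19, adjusted p = 0.00543). In the PV input it had 124, 100.4, 154 and 160.0 CPM after kainic acid and 57.5, 56.5, 66.2 and 72.4 CPM after PBS (1.10 ± 0.17, adjusted p = 0.00115, or 2.15-fold). No kainic acid library came down to a PBS library in either fraction. Sema3e had 96.8, 85.8, 117 and 54.6 CPM in the kainic acid PV IP and 43.6, 38.7, 33.8 and 33.5 CPM in the PBS IP, without overlap (1.25 ± 0.24, adjusted p = 0.00482, or 2.38-fold). In the input it had 152, 169.7, 198 and 131 CPM after kainic acid and 136, 117, 113 and 81.2 CPM after PBS, which overlapped (0.56 ± 0.18, adjusted p = 0.0649, and 0.57 ± 0.10, adjusted p = 0.000103 with the block). CA1 pyramidal markers summed to 3612 to 7034 CPM in the kainic acid PV IP and 4556 to 5728 CPM in the PBS PV IP, which overlap. Their part in the PV IP values of Sema3e and Efnb2 was not tested.

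Plxna1 fell in both PV fractions. It had 122, 104, 93.3 and 89.8 CPM in the kainic acid PV IP and 157, 174, 153 and 201 CPM in the PBS IP (-0.74 ± 0.19, adjusted p = 0.0274), a call lost without kainic acid replicate 2 (adjusted p = 0.0702) or 3 (0.0977) or PBS replicate 1 (0.055), 2 (0.0815) or 4 (0.0754). In the input it had 122, 124, 116 and 109 CPM after kainic acid and 244, 219, 202 and 276 CPM after PBS (-0.98 ± 0.14, adjusted p = 0.000601). Neither fraction had overlapping groups.

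Plxnc1 had 66.5, 60.6, 73.0 and 50.5 CPM in the kainic acid PV input and 99.3, 120.5, 99.3 and 80.7 CPM in the PBS input (-0.65 ± 0.16, adjusted p = 0.0225). In the PV IP it had 59.0, 76.3, 57.3 and 41.6 CPM after kainic acid and 82.4, 93.7, 99.4 and 82.0 CPM after PBS, which did not overlap but missed the threshold (-0.60 ± 0.22, adjusted p = 0.149). Unc5c had 118, 109, 122 and 81.4 CPM in the kainic acid PV input and 181, 166, 165 and 139 CPM in the PBS input (-0.58 ± 0.16, adjusted p = 0.0312). In the PV IP its levels overlapped widely, with 129, 83.0, 87.8 and 68.7 CPM after kainic acid and 98.4, 113, 84.5 and 71.2 CPM after PBS (0.01 ± 0.23, adjusted p = 0.987). Without the block the input call of Plxnc1 was lost without kainic acid replicate 2 (adjusted p = 0.0585) or PBS replicate 1 (0.0598), 2 (0.0878) or 3 (0.0577), and that of Unc5c without kainic acid replicate 1 (0.0529) or 2 (0.0666) or PBS replicate 1 (0.102), 2 (0.0873) or 3 (0.0811).

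Unc5b in the PV IP had 22.1, 46.3, 28.8 and 61.3 CPM after kainic acid and 11.9, 12.1, 19.0 and 28.2 CPM after PBS. Replicate 4 was the highest in each group, the ranges overlapped, and the difference did not pass (1.16 ± 0.37, adjusted p = 0.0972). It passed with DESeq2 (adjusted p = 0.0331), with the replicate number as a block, and without PBS replicate 4 (1.50, adjusted p = 0.0392). In the PV input Unc5b had 36.6, 22.6, 33.0 and 59.7 CPM after kainic acid and 17.6, 26.5, 19.1 and 54.4 CPM after PBS (0.37 ± 0.38, adjusted p = 0.597), and with replicates 1 to 3 alone it passed (0.57, adjusted p = 0.0496). Endothelial markers summed to 44.4 to 62.4 CPM in the kainic acid PV IP and 27.5 to 46.4 CPM in the PBS PV IP, ranges that overlap. Markers of other interneurons (7 of 8 listed) summed to 1303 to 1726 CPM and 716.7 to 778.9 CPM there, without overlap. The part of either list in the Unc5b values was not tested.

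Several members called in the CaMK2a line had PV values of the same sign that did not pass without the block. Sema5a had 291, 228, 227 and 167 CPM in the kainic acid PV input and 377, 375, 415 and 228 CPM in the PBS input (-0.59 ± 0.20, adjusted p = 0.0896), and 210.3, 89.6, 168 and 86.7 CPM in the kainic acid PV IP and 229.7, 221, 225 and 140.3 CPM in the PBS IP (-0.55 ± 0.27, adjusted p = 0.337). Sema6b had 11.3, 16.5, 13.6 and 34.5 CPM in the kainic acid PV input and 34.8, 31.4, 24.8 and 48.6 CPM in the PBS input (-0.86 ± 0.34, adjusted p = 0.131), and 19.5, 14.3, 8.57 and 20.7 CPM in the kainic acid PV IP and 17.8, 24.1, 23.8 and 42.5 CPM in the PBS IP (-0.77 ± 0.37, adjusted p = 0.318). The ranges of the treatments overlapped for both genes in both fractions. With the block both passed in the PV input, Sema5a at -0.59 ± 0.08 (adjusted p = 7.02e-06) and Sema6b at -0.94 ± 0.18 (adjusted p = 0.000253). Sema5a also passed with the block in the PV IP. Epha3 had 8.21, 4.13, 11.3 and 8.64 CPM in the kainic acid PV IP and 10.8, 13.4, 23.5 and 11.7 CPM in the PBS IP (-0.87 ± 0.43, adjusted p = 0.349), and 9.12, 17.6, 7.92 and 16.7 CPM in the kainic acid PV input and 17.5, 14.8, 17.8 and 12.7 CPM in the PBS input (-0.27 ± 0.28, adjusted p = 0.62), overlapping in both.

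The low ligands were scattered in the PV line. Ntn4 had 1.26, 1.56, 6.60 and 3.97 CPM in the kainic acid PV IP and 17.4, 9.83, 8.13 and 7.10 CPM in the PBS IP, with no overlap but a wide error (-1.65 ± 0.61, adjusted p = 0.166). In the PV input it had 2.66, 2.61, 3.84 and 2.69 CPM after kainic acid and 1.94, 2.68, 2.55 and 2.72 CPM after PBS (0.26 ± 0.37, adjusted p = 0.719). Sema4c had 0.271, 5.32, 1.48 and 2.31 CPM in the kainic acid PV IP and 0.172, 0.703, 0.423 and 6.08 CPM in the PBS IP, where PBS replicate 4 exceeded every kainic acid library (0.32 ± 1.10, adjusted p = 0.931). Its input levels were 1.77, 2.84, 3.22 and 5.29 CPM after kainic acid and 1.37, 0.751, 0.811 and 2.48 CPM after PBS (1.26 ± 0.52, adjusted p = 0.153). Efna1 had 2.03, 2.72, 1.61 and 3.68 CPM in the kainic acid PV input and 1.25, 1.50, 0.811 and 3.61 CPM in the PBS input (0.47 ± 0.53, adjusted p = 0.64). In the PV IP Efna1 had 0.812, 0, 0.197 and 0.888 CPM after kainic acid and 0.429, 0.703, 0 and 2.75 CPM after PBS and was too low to test. Robo4 had 4.69, 0, 0.591 and 3.79 CPM in the kainic acid PV IP and 1.03, 2.11, 0.169 and 0.217 CPM in the PBS IP (1.38 ± 1.20, adjusted p = 0.64), and 2.28, 2.16, 3.47 and 8.26 CPM in the kainic acid PV input and 2.97, 1.72, 0.464 and 2.32 CPM in the PBS input (1.12 ± 0.59, adjusted p = 0.266).

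**Figure D3:**
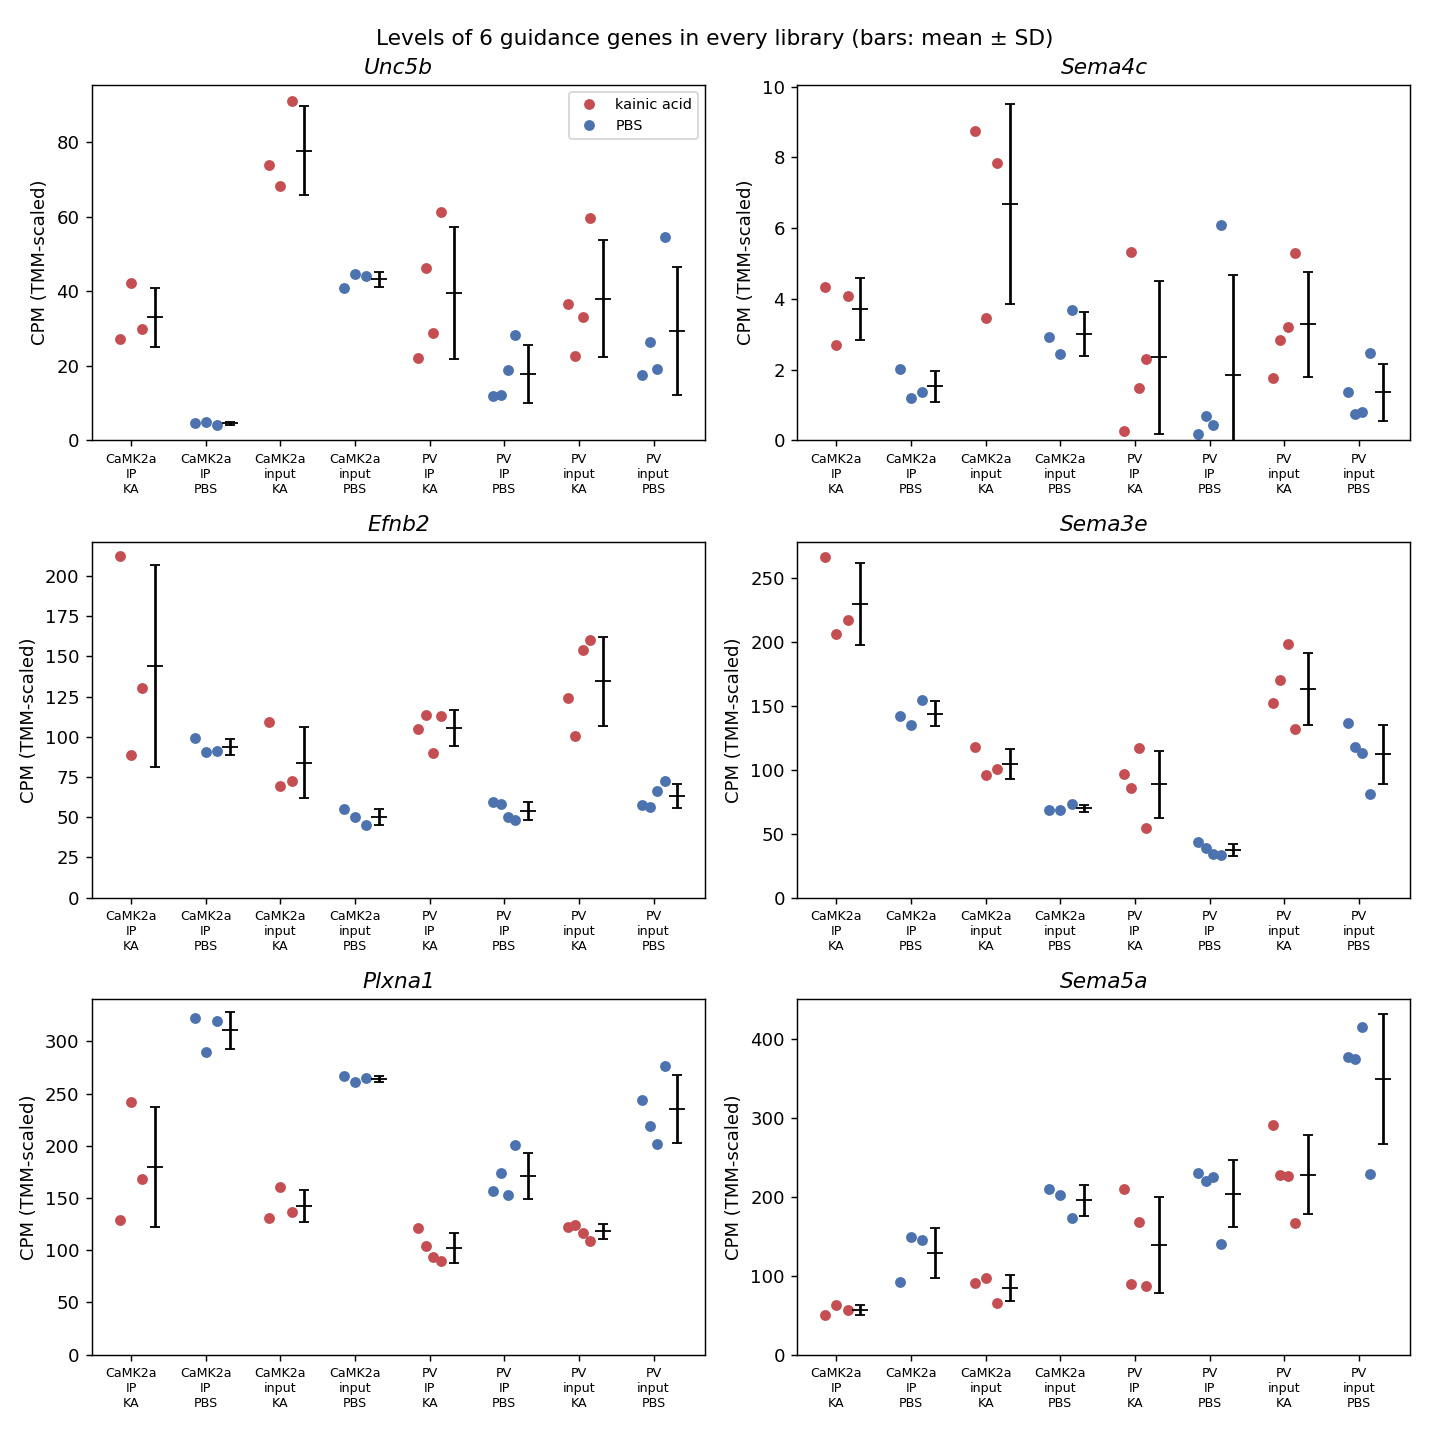
CPM (TMM factors over all 28 libraries) of 6 members in every library, by line, fraction and treatment, with kainic acid (KA, red) left of PBS (blue). Points are libraries, and the black bars give the mean and SD of the 3 CaMK2a or 4 PV libraries of a group, with bars that would pass below 0 ended there. Unc5b reaches 27.1 to 42.1 CPM in the kainic acid CaMK2a IP over 4.22 to 4.88 CPM in the PBS IP, and Plxna1 lies lower after kainic acid in all 4 pairs.

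Whether the effect of kainic acid differed between the IPs of the 2 lines was tested as PV IP minus CaMK2a IP. None of 57 members passed by edgeR, and 5 had an unadjusted p under 0.05. By DESeq2 none passed either, where 0.33% of all genes did. For Unc5b the difference was -1.69 ± 0.51, adjusted p = 0.432, so the larger effect in the CaMK2a IP was not separable from the spread of the PV libraries after adjustment over all genes, of which 0.0931% passed. Between PV IP and PV input none of 56 members differed in its effect by edgeR or by DESeq2, 4 had an unadjusted p under 0.05, and 0.0253% of all genes passed by edgeR and 0.059% by DESeq2. Unc5b stood at 0.82 ± 0.57 there and Sema3e at 0.72 ± 0.29.

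IP was set against input of the same line to ask where members are held on ribosomes. These comparisons use the same libraries as those between treatments and are not independent of them. In the CaMK2a line after PBS, 13 of 53 members were higher in the IP and 28 lower, or 77.4% called against 64.3% of all 11194 genes (32.6% higher and 31.7% lower). After kainic acid 12 of 54 were higher and 18 lower, or 55.6% against 50.1% of all (24.3% higher and 25.8% lower). These tests did not use the pairing of IP and input by lysate pool. With the pool as a block every one of these calls was kept. Efna3 was added after PBS, and Ephb3, Sema4c and Unc5c after kainic acid. Upper-quartile factors moved the median of all genes to -0.13 after PBS and -0.15 after kainic acid, where TMM factors gave -0.01 and -0.02, so small values of this kind depend on the scaling.

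Highest over the input in the CaMK2a IP stood a secreted semaphorin and receptors of ephrin-A ligands. Sema3a had 16.9, 14.3 and 15.03 CPM in the PBS IP and 4.61, 4.80 and 3.55 CPM in the PBS input, without overlap (1.82 ± 0.19, adjusted p = 2.7e-07). Epha7 followed at 1.48 ± 0.06, Epha3 at 1.36 ± 0.14, Epha6 at 1.27 ± 0.06 and Epha5 at 0.95 ± 0.06. Robo2, Sema3e and Efnb2 stood at 1.07 ± 0.07, 1.04 ± 0.07 and 0.90 ± 0.08. In the sense of IP over input all of these were also called after kainic acid, between 0.56 for Robo2 and 1.83 for Sema3a, with Efnb2 near the threshold (0.71 ± 0.27, adjusted p = 0.0489). That call of Efnb2 was lost without kainic acid IP replicate 1 (0.32, adjusted p = 0.206) or 3 (0.0814), without input replicate 2 (0.184) or 3 (0.171), and with upper-quartile factors (0.0952).

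Plexins of class B, which receive class 4 semaphorins, were among the lowest against the input, as were Unc5b and the secreted ligand Ntn1. Plxnb1, the receptor of Sema4d, had 12.5, 20.98 and 14.0 CPM in the PBS IP and 147, 154 and 155 CPM in the PBS input (-3.32 ± 0.13, adjusted p = 2.02e-12). Unc5b came next at -3.25 ± 0.14, adjusted p = 4.04e-12, then Plxnb3 at -2.94 ± 0.20, Ntn1 at -2.81 ± 0.35, Sema3b at -2.28 ± 0.51 and Sema4b at -1.68 ± 0.15. The values of Ntn1 and Sema3b rest on few reads, 14, 9 and 5 and 17, 1 and 6 in the PBS IP libraries. Ephb4 and Robo4 had 2, 2 and 3 and 3, 4 and 1 reads in the PBS IP libraries against 81, 38 and 34 and 47, 52 and 29 in the inputs, and a fold is not given for counts that low. After kainic acid Unc5b stood at -1.30 ± 0.19, adjusted p = 0.000183. Markers of other cell types were lower in these IPs too: after PBS, astrocyte markers summed to 1374 to 2074 CPM in the IP and 8019 to 8157 CPM in the input, oligodendrocyte markers (8 of 10) to 829.5 to 1669 CPM and 4908 to 5755 CPM, and endothelial markers to 8.88 to 20.2 CPM and 67.1 to 75.0 CPM. Their part in the values of members was not tested. No listed marker in the tables was at 0 throughout a group.

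In the PV line after PBS, 3 of 53 members were higher in the IP and 13 lower, or 30.2% against 18.6% of all 11205 genes (10.6% higher and 7.99% lower). With the lysate pool as a block 21 were lower, against 14.3% of all genes. After kainic acid 2 of 54 were higher and 6 lower, or 14.8% against 11% of all (6.85% higher and 4.11% lower), and 11 were lower with the block, against 9.66% of all. With PV replicates 1 to 3 alone 3 were higher and 17 lower after PBS, where 23.4% of all were called, with Efnb3, Plxna1, Robo2 and Sema6d added, and 2 were higher and 4 lower after kainic acid, where 15.4% were called, with Robo2 added and Plxnb1, Plxnb3 and Slit1 lost. Ntn4 had 17.4, 9.83, 8.13 and 7.10 CPM in the PBS PV IP and 1.94, 2.68, 2.55 and 2.72 CPM in the PBS input (2.13 ± 0.41, adjusted p = 0.00242). The netrin receptor Unc5d had 142, 153, 123.3 and 97.4 CPM in the IP and 74.3, 56.9, 78.8 and 46.4 CPM in the input (1.05 ± 0.20, adjusted p = 0.00189). Sema7a, a lipid-anchored semaphorin, had 96.3, 117, 83.3 and 114 CPM in the IP and 54.2, 58.8, 63.6 and 71.5 CPM in the input (0.77 ± 0.17, adjusted p = 0.00619). For these 3 genes every IP library lay above every input. Unc5d and Sema7a were called after kainic acid as well, at 0.94 ± 0.22 and 1.17 ± 0.25, and Ntn4 was not. The call of Unc5d after kainic acid was lost without input replicate 3 (adjusted p = 0.0519).

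Of the members called in the PV line after PBS, the lowest in the IP against the input were Plxna3 (-1.62 ± 0.36, adjusted p = 0.00577), Sema3e (-1.54 ± 0.18, adjusted p = 5.83e-05) and Plxnb1 (-1.41 ± 0.16, adjusted p = 3.93e-05). Sema3d, Ephb1, Slit1, Epha4 and Plxnb2 followed, between -1.15 and -0.97. The calls of Slit1 and Sema3d were each lost without any 1 of 5 of the 8 libraries (adjusted p 0.0599 to 0.136 and 0.0506 to 0.0942). After kainic acid the lowest called members were Plxnb3 (-1.54 ± 0.43), Plxnb2 (-1.37 ± 0.28) and Plxnb1 (-1.19 ± 0.31), then Epha4, Slit1 and Sema3e between -0.96 and -0.84. With PV replicates 1 to 3 alone the calls of Plxnb1 (adjusted p = 0.0605), Plxnb3 (0.15) and Slit1 (0.0819) were lost. Leaving out 1 library ended the call of Plxnb1 in 3 cases, of Plxnb3 in 5, of Sema3e in 5 and of Slit1 in 6 of 8. Unc5b did not pass in the PV line, at -0.68 ± 0.39, adjusted p = 0.254 after PBS and 0.11 ± 0.35, adjusted p = 0.878 after kainic acid.

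The difference between the lines in IP over input after PBS was itself tested. The lines also differed in RNA amount and pool size, and the design cannot tell these apart from the Cre driver. It passed for 21 of 55 members, 9 higher and 12 lower in the PV line, or 38.2% against 27.6% of all 11793 genes (13.3% higher and 14.2% lower). Sema3e was the furthest apart on the CaMK2a side, above the input in the CaMK2a IP and below it in the PV IP (-2.62 ± 0.22, adjusted p = 2.55e-07). Epha4 (-1.88 ± 0.24), Sema3a (-1.85 ± 0.43), Epha7 (-1.72 ± 0.28), Robo2 (-1.66 ± 0.30), Epha3 (-1.45 ± 0.36), Epha6 (-1.39 ± 0.28) and Slit3 (-1.25 ± 0.26) were lower in the PV line in the same sense. On the PV side, leaving out Ephb4 with its 2 to 3 reads per CaMK2a IP library, Ntn4 was furthest (3.13 ± 0.57, adjusted p = 0.000581), followed by Unc5b (2.51 ± 0.52, adjusted p = 0.00155), Plxnb3 (2.42 ± 0.44), Plxnb1 (1.81 ± 0.23), Sema4b (1.52 ± 0.31) and Sema6a (0.96 ± 0.22). Among Unc5b, Plxnb3 and Plxnb1, Plxnb1 was called lower in the IP than in the input in both lines, while the other two passed in CaMK2a mice and did not pass in PV mice (-0.68 ± 0.39 and -0.49 ± 0.33). With the replicate number as a block 25 members passed, where 35.9% of all genes did, with Efna3, Ephb2, Slit1 and Unc5d added. With PV replicates 1 to 3 alone 25 passed, where 37.6% of all did, with Ntn1, Plxnb2, Robo4 and Unc5d added. Marker sums in the IP after PBS differed between the lines as well. Astrocyte markers summed to 4656 to 6443 CPM in the PV IP and 1374 to 2074 CPM in the CaMK2a IP. Oligodendrocyte markers summed to 3986 to 5961 CPM and 829.5 to 1669 CPM there, and endothelial markers to 27.5 to 46.4 CPM and 8.88 to 20.2 CPM. Oligodendrocyte precursor and microglia markers were also higher in the PV IP, without overlap. Lower there were CA1 pyramidal markers, markers of other interneurons, and mural and leptomeningeal markers. The part of these markers in the values of members was not tested.

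**Figure D4:**
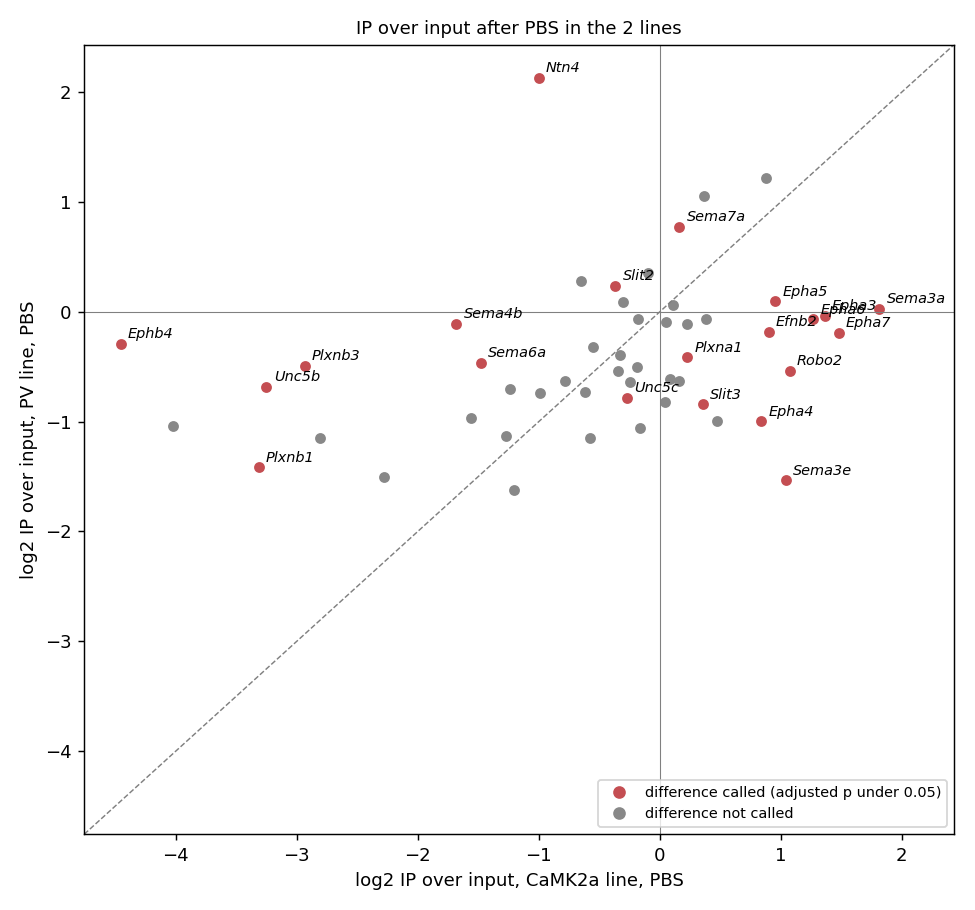
Log2 ratio of IP over input after PBS in the PV line (vertical axis) and the CaMK2a line (horizontal axis), 1 point per member tested in both, with red and a name where the difference between the lines has an adjusted p under 0.05. Eph receptors of class A, Sema3a and Sema3e lie to the right, above 0 in the CaMK2a line, and Ntn4 stands alone at the top, at 2.13 in the PV line, while Ephb4 at the far left rests on 2 to 3 reads per CaMK2a IP library.

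Other genes of the guidance pathways were counted from lists. Of the co-receptors and further guidance proteins, 20 of 23 listed genes were in the tables. In the CaMK2a IP 3 of 19 tested rose and 6 fell, where 19.8% of all genes rose and 15.3% fell. In the CaMK2a input 3 of 20 rose and 8 fell, against 19.3% and 15.7% of all genes. For the PV IP 3 of 20 rose and none fell by edgeR, against 4.05% and 0.801%, and in the PV input 3 of 20 rose and 1 fell, against 8.21% and 3.36%. Nrp1, the neuropilin that pairs with A-type plexins, rose in all of them on the log2 scale, by 1.36 ± 0.10 in the CaMK2a IP, 1.15 ± 0.11 in the CaMK2a input, 1.14 ± 0.21 in the PV IP and 1.00 ± 0.14 in the PV input. Nrp2 rose by 0.70 ± 0.12 in the CaMK2a IP and 0.58 ± 0.10 in the CaMK2a input, whereas the netrin-G protein Ntng1 fell there (-0.73 ± 0.11 and -0.82 ± 0.14). Flrt2 (0.91 ± 0.18) and Flrt3 (0.84 ± 0.20), which bind Unc5 receptors, rose in the PV IP.

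Of 38 listed effectors inside the cell, 36 were in the tables. In the CaMK2a IP 11 of 35 tested rose and 5 fell, where 19.8% of all genes rose and 15.3% fell, and in the CaMK2a input 9 of 36 rose and 6 fell, against 19.3% and 15.7% of all genes. In the PV IP 4 of 36 rose and none fell by edgeR, against 4.05% and 0.801%, and in the PV input 4 of 35 rose and 3 fell, against 8.21% and 3.36%. Dpysl5, of the collapsin response mediator family, rose on the log2 scale by 1.86 ± 0.11 in the CaMK2a IP and 1.11 ± 0.13 in the CaMK2a input.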

How the data were processed

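The deposited tables hold whole-number counts per gene and library, the authors' RPKM, and, for each 2-group comparison, a fold change (deposited as log2), a p-value and a false discovery rate. Reads came from SPIA-amplified RNA, and the submitters' processing notes name BWA, edgeR and mm10/GRCm38, with versions and strandedness not given in the sources used here. Shared counts agreed between tables (189281 values compared, 0 differed), and 21263 gene-by-library values that a table left out were set to 0, none of them a member's.

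Counts were tested with edgeR 4.0.16 (R 4.3.3; filterByExpr at a minimum count of 10, TMM factors, quasi-likelihood F test, Benjamini-Hochberg adjustment over all genes tested, threshold 0.05) in 12 comparisons, each fitted to its own groups. The scripts were tested on simulated data, where known changes were recovered less often in the PV IP than in the CaMK2a fractions and the share of false calls in both CaMK2a fractions was above the threshold. SE is the log2 fold change divided by the square root of F. CPM were computed from the deposited counts with TMM factors over all 28 libraries. Log2 fold changes use edgeR's prior count of 0.125. DESeq2 1.42.0, other factors and filters, a replicate block, all 4 groups of a line, PV replicates 1 to 3 and each library left out were alternatives.

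IP and input of 1 number share a lysate pool, so these pairs come from the design. Between the treatments, deviations of same-numbered PV inputs had the highest r in replicate 4 (0.159, 0.145, 0.143 and 0.616 for the 4 pairs). Deviations within a group cancel, so the values of the other pairs are not independent of replicate 4. Libraries of different numbers were not compared. Members with an adjusted p under 0.05 in a comparison between treatments were named, and for the others the largest called changes. The members and all lists were chosen with earlier results of these data known. The pools are separate, but p-values measure only the spread between these libraries. The result for 1 gene of the effector list is not reported here.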

Additional observations from a re-analysis of the deposited data

Results flagged for a closer look

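In groups of 4 libraries, 1 library stood apart from the other three in 9 of 100 groups tested over 25 genes, where chance gives about 1 in 20. Of these 9, 7 were PV replicate 4. Its Epha7 level was 166.3 CPM in the kainic acid IP and 194.3 CPM in the PBS input, below the other libraries. It was also low for Sema5a in the PBS IP at 140.3 CPM. It was high for Plxnd1 at 14.63 CPM, Sema4d at 115.6 CPM and Unc5a at 146.1 CPM in the kainic acid input, and for Sema4c at 6.083 CPM in the PBS IP. The other 2 were Ntn4 in kainic acid input replicate 3 of the PV line at 3.837 CPM and Robo1 in PBS IP replicate 1 of the PV line at 176.8 CPM, both high.

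The effect of kainic acid on Unc5b differed between the CaMK2a IP and input by 1.95 on the log2 scale. Between the lines, IP over input after PBS (PV minus CaMK2a) was lower by log2 differences of -2.624 for Sema3e, -1.88 for Epha4, -1.846 for Sema3a, -1.721 for Epha7, -1.662 for Robo2, -1.448 for Epha3, -1.386 for Epha6, -1.254 for Slit3, -1.136 for Efnb2, -0.9065 for Epha5, -0.695 for Plxna1 and -0.5653 for Unc5c. It was higher by 3.134 for Ntn4, 2.509 for Unc5b, 2.422 for Plxnb3, 1.812 for Plxnb1, 1.518 for Sema4b, 0.9555 for Sema6a, 0.5622 for Sema7a and 0.5446 for Slit2. For Ephb4 the fitted 4.063 rests on 2 to 3 reads per CaMK2a IP library and depends on the prior count. The calls of Ephb4, Sema7a, Slit2 and Unc5c were lost under some of the alternatives, each without 1 library in several cases.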

How the results depend on the processing

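Of 158 called results for members, 110 held under every alternative tried, 48 were lost under some and 0 reversed. Rises and falls after kainic acid numbered 4 to 9 and 8 to 12 in the CaMK2a IP with each library left out, 6 to 10 and 5 to 14 in the CaMK2a input, 2 to 3 and 0 to 1 in the PV IP, and 1 to 3 and 1 to 6 in the PV input. Counts over all genes moved as well, from 1479 to 2318 rises and 979 to 1924 falls in the CaMK2a IP. Members higher and lower in IP than input numbered 12 to 16 and 23 to 26 (CaMK2a, PBS), 9 to 14 and 16 to 22 (CaMK2a, kainic acid), 3 and 9 to 16 (PV, PBS) and 1 to 2 and 2 to 6 (PV, kainic acid). The difference between CaMK2a IP and input was called for 1 to 2 members upward and 0 to 1 downward, those of the PV line and between the IPs for 0, and that between lines for 6 to 10 upward and 11 to 14 downward. The replicate block gave 17 falls in the CaMK2a input, 2 in the PV IP, 4 rises and 11 falls in the PV input, and 21 and 11 members lower in PV IP than input after PBS and kainic acid. Upper-quartile factors gave 16 falls in the CaMK2a input and 50.9% of called genes higher in PV IP over input after kainic acid, against 62.5% with TMM. The fit to all 4 groups of a line gave 4 falls in the PV IP. The PV input had 2 rises without a filter and by DESeq2, and 5 rises and 9 falls with replicates 1 to 3. The share of all genes called is not given for every one of these settings, so the counts describe the processing and not the members as a set. The cause was not tested. Outside the PV input, same-numbered libraries of the 2 treatments had r from -0.183 to 0.153 in the CaMK2a IP. They had 0.091 to 0.275 in the CaMK2a input and 0.0351 to 0.362 in the PV IP. The values of the CaMK2a input overlap those of the PV input. Libraries of different numbers were not compared, so whether the numbers pair the treatments is not settled in any fraction. With the replicate block edgeR gave Unc5b an adjusted p of 0.0198 in the PV IP. The lysate-pool block was chosen after seeing the data.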
